A study of Mus musculus with 72 samples.

Results

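Liver RNA of B6M mice, the male C57BL/6J class of a diet study, was compared between 6 libraries from a Western diet with high isoleucine (labelled WD High Ile, called High Ile here) and 6 libraries from the Western diet with control isoleucine (WD Control, called Control). These 12 libraries were chosen from the 72 of the series by the prefix B6M and the diet label. The others hold low isoleucine in B6M, and all 3 diets in female C57BL/6J (B6F), female DBA/2J (DBAF) and male DBA/2J (DBAM) mice. The mice had been on their diet for 12 weeks and were fasted for 16 h overnight before liver was taken. The design text has the diets begin at 6 weeks of age, whereas the labels give 18 weeks, and the strain field reads C56BL/6J. Every group was on a Western diet, so the response to such a diet itself was not measured.

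Isoleucine is one of the essential amino acids with a branched side chain, and a Western diet, rich in fat and sugar, is widely used to induce obesity and fatty liver in mice. The liver answers lipids and nutrients largely through transcription factors: SREBP2 drives cholesterol synthesis when sterols are scarce, SREBP1c drives fatty acid synthesis when insulin is high, and LXR raises sterol export and Srebf1 when oxysterols accumulate. PPARA drives fatty acid oxidation in fasting, and NRF2, CAR and PXR induce detoxifying enzymes. Bulk liver RNA holds hepatocytes together with macrophages, endothelial, stellate and immune cells, so fewer cells of a type and less RNA per cell cannot be told apart.

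Each title holds a number and the letter N or R, and each number is shared by 2 libraries of the same diet: 4, 8 and 14 in High Ile, and 3, 7 and 11 in Control. The labels do not say what number or letter stands for, or that each library is a separate animal, so p-values measure only how libraries vary, which may be partly technical. Because a number lies in 1 diet only, the diets could not be compared within a number. High Ile effects were therefore set beside fits without each number and a fit with the number as a random block (called the block). A fit with the 2 libraries of a number summed (called summed, 3 against 3) is given for counts of calls and part of the genes. Differences between classes are given with the block for part of the genes. Low isoleucine changes of single genes were set beside none of these checks. The 12 libraries held 12958975 to 51125371 counts, and 14954 genes had enough counts to be tested. The male label matched the sex-specific genes, with Xist at 0 to 0.272 CPM (counts scaled to library size) and Ddx3y at 15.7 to 46.5 CPM. Alb, the gene of serum albumin and a defining hepatocyte marker, had 41900, 47300 and 56000 CPM (lowest, median and highest library, as in all triplets of levels here) in High Ile and 53800, 61400 and 87900 CPM in Control. On the first principal component of the 12 libraries (23.4% of the variance), those of High Ile numbers 4 and 8 lay at 13.3 to 52.8. Those of High Ile number 14 lay at -26.7 and -20.2, within the Control range of -34.9 to 1.5. On the second component (17.9%) they lay at 55.1 and 15.1, above the Control range of -38.8 to 9.1, and 14N was the most extreme of the 12. High Ile 4R and 8R, at 15.5 and 12.5, also lay above that range, and 4N and 8N, at -15.8 and -15.1, within it.

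In High Ile livers, 16 of 25 tested genes of cholesterol synthesis and SREBP2 targets were lower, 3 of them also with the block. Of 26 genes of lipid droplets and fat storage 6 were higher, 3 of them with the block, and of 25 NRF2 and glutathione genes 8 were higher, 4 of them with the block. The sterol transporter genes Abcg5 and Abcg8 rose and the fatty acid omega-hydroxylase gene Cyp4a14 fell, each with the block as well. With edgeR's quasi-likelihood test in a single fit of the 72 libraries and Benjamini-Hochberg adjustment over all tested genes, 283 genes were higher (1.89%) and 391 lower (2.61%) in High Ile at an adjusted p under 0.05. A change of at least 2-fold was shown by 85 of the genes that rose and 49 of those that fell. The median log2 fold change of all tested genes, High Ile minus Control, was 0.03.

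The number of genes called depended on the title numbers. With the block (limma voom, consensus correlation 0.24), 71 genes were higher (0.475%) and 65 lower (0.435%), of which 67 and 61 were among the calls above. With numbers summed, edgeR called 26 higher and 33 lower. In a fit of the 12 libraries alone, which takes its spread from these libraries only, edgeR called 5 higher and 2 lower, with 1082 and 1073 genes at an unadjusted p under 0.05. The common biological coefficient of variation was 0.25 in these 12 libraries, against 0.21 in the 36 libraries of the other classes on the same diets.

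Leaving out High Ile number 8 left 9 genes higher and 7 lower, and without Control number 11 there were 44 and 49. Without Control number 3 there were 79 higher and 105 lower. By contrast, without High Ile number 14 625 were higher and 728 lower, and without Control number 7 there were 656 and 857. Single libraries also mattered: without High Ile 8R there were 64 higher and 77 lower, without Control 11R 118 and 117, without Control 3R 128 and 180, and without Control 7R 450 and 544. Of the 69 called genes given here with values, 15 were still called without number 8, 27 without number 11, 48 without number 3, 45 without library 8R and 52 without library 11R.

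**Figure D1:**
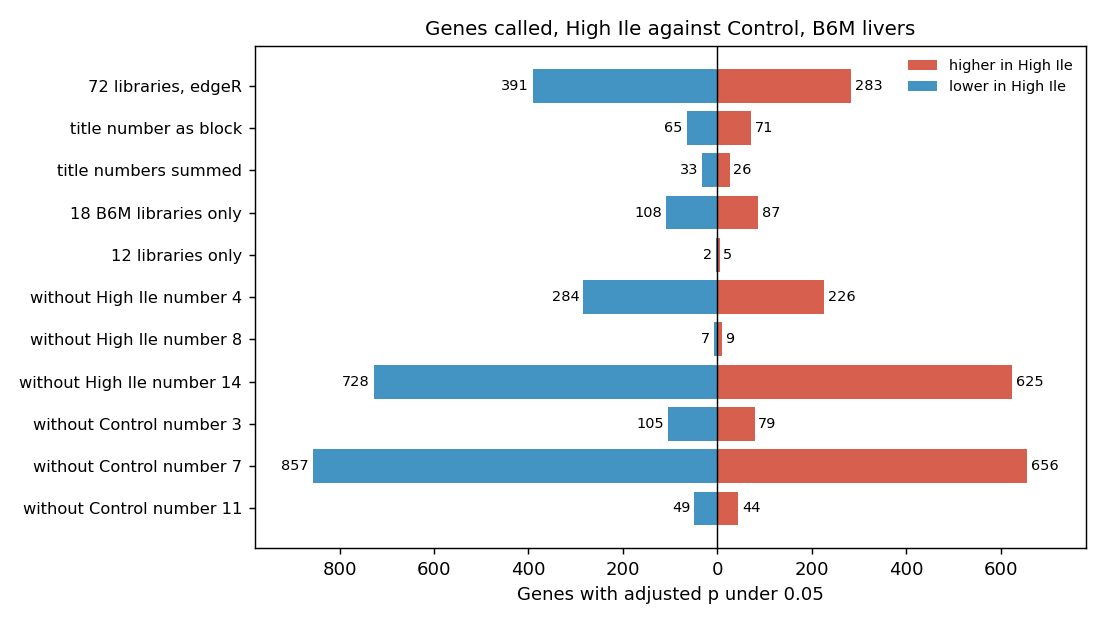
Number of genes with adjusted p under 0.05, higher (right, red) or lower (left, blue) in High Ile than in Control livers of B6M mice, in the fit of 72 libraries and under each check on title numbers. The counts run from 5 higher and 2 lower in the fit of 12 libraries to 656 higher and 857 lower without Control number 7.

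The means of the 3 High Ile numbers lay above those of the 3 Control numbers for 1039 genes (6.95% of all tested) and below them for 1342 (8.97%). Among the genes called, this held for 182 of 283 and 315 of 391. All 6 High Ile libraries lay above all 6 Control libraries for 45 of the genes that rose, and below them for 80 of those that fell. The share of all tested genes whose libraries separated in this way is not given here. The genes called were selected on the same libraries, so the counts of 45 and 80 only describe them. The fit of 72 libraries, the block, the summed fit and each of the fits without a number were all passed by 13 genes. Cidea, Cfd, Cxcl1, B430212C06Rik, Gstm1, Abcg8, Abcg5 and Chchd6 were the 8 higher ones, and Cyp4a14, Slco2a1, Hsd17b7, Zfp217 and Pon3 the 5 lower ones. Of these 13, the fit of 12 libraries called Cyp4a14 (edgeR adjusted p = 0.017) and Cxcl1 (0.017).

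B430212C06Rik, Chchd6, Slco2a1 and Zfp217 were named after their values were seen. Slco2a1, a prostaglandin transporter, had 21.4, 24.6 and 46.7 CPM in High Ile, against 40.9, 54.7 and 74 CPM in Control, and High Ile 14R overlapped the lowest Control library, 7N. It fell by 0.97 ± 0.15 on the log2 scale (edgeR adjusted p = 4.9e-05, block 0.00026, summed 0.025). Chchd6, a protein of mitochondrial cristae, rose by 1.22 ± 0.21 (edgeR adjusted p = 0.00026, block 0.0062, summed 0.044), and Zfp217, a zinc finger protein, fell by 0.6 ± 0.11 (edgeR adjusted p = 7e-04, block 0.017, summed 0.032) without overlap of libraries. B430212C06Rik had 4.53, 3.86, 4.78 and 6.01 CPM in 4N, 4R, 8N and 8R and 0.0688 and 0.626 CPM in 14N and 14R of High Ile, against 0.0207 to 0.49 CPM in Control.

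The cholesterol synthesis pathway builds cholesterol through mevalonate, isoprenoids, squalene and lanosterol, and SREBP2 induces its enzymes together with regulators of cholesterol uptake. Of 25 tested members of the list, 0 were higher and 16 lower in High Ile, and the median log2 fold change was -1.06, beside 0.03 for all genes. The means of the High Ile numbers lay below those of the Control numbers for 21 of the 25. With the block 3 of the 16 passed, Hsd17b7, Lss and Cyp51, and with numbers summed 11 members were called. Without Control number 11 there were 2 members called, without Control library 11R there were 10, and without High Ile number 8 there was 1. The fit of 12 libraries called 0.

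For 4 members of this pathway the window of 300 bases around the transcription start is printed, from RefSeq on GRCm38.p6, running 5′ to 3′ on the gene's strand with 250 bases before the start. Hsd17b7, Lss and Cyp51 are shown because they passed the block, and Hmgcs1 because its window was the one of the list that held the sterol response motif. The windows are chr1:169969156-169969455 on the minus strand for Hsd17b7, chr10:76531355-76531654 on the plus strand for Lss, chr5:4104648-4104947 on the minus strand for Cyp51 and chr13:119690101-119690400 on the plus strand for Hmgcs1. Capitals mark TCACNCCAC, the core of a sterol regulatory element, and CCAAT, the motif bound by NF-Y, each on either strand.
Hsd17b7: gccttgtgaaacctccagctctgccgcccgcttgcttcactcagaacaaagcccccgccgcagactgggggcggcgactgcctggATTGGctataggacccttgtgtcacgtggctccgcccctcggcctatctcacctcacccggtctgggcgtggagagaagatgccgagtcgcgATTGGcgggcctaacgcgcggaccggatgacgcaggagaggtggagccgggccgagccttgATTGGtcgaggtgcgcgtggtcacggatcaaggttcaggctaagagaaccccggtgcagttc
Lss: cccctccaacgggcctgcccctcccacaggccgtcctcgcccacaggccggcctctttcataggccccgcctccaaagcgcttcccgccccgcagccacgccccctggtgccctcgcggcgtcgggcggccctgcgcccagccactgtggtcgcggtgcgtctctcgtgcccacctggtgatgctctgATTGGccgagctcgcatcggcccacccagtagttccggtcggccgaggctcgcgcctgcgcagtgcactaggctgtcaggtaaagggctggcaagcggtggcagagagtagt
Cyp51: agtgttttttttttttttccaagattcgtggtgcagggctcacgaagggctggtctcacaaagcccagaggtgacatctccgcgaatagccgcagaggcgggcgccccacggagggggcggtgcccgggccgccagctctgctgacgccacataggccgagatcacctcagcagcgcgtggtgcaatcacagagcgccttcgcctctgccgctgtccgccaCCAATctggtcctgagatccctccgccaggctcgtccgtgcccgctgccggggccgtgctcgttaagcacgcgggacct
Hmgcs1: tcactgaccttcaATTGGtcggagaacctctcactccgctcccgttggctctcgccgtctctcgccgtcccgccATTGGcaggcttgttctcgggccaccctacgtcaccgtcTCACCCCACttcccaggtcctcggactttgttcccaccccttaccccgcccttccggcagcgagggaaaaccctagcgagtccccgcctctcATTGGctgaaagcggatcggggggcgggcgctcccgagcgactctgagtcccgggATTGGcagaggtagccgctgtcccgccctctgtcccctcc
The windows of 17 list members were found. CCAAT stood on a strand of 15 of them (88.2%), against 37.9% of the windows of 27025 genes, and TCACNCCAC on 1 (5.88%), against 1.22%. Of the 10 members with a window that were called lower, 10 held CCAAT, as did 5 of the 7 not called. Of those 7, Tm7sf2, Pmvk, Mvk, Dhcr7 and Sc5d also had negative log2 fold changes, and Ebp and Acat2 positive ones. A match describes letters in this window and not a bound site.

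Hsd17b7, a sterol ketoreductase of the late pathway, had the lowest adjusted p of the list. It lies on chromosome 1 at 169949535 to 169969241 (GRCm38, minus strand) and had 10.3, 17.9 and 33.5 CPM in High Ile, against 36, 48.3 and 88.4 CPM in Control. Every High Ile library lay below every Control library, with 14N the highest of High Ile. Hsd17b7 fell by 1.45 ± 0.23 (SE) on the log2 scale (edgeR adjusted p = 5.2e-05, block 5e-04, summed 0.0067), and its edgeR adjusted p was at most 0.0084 without any number.

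Sqle, the squalene epoxidase, on chromosome 15 at 59315077 to 59331192, had the largest fall of the pathway. Sqle stood at 0.32, 0.617 and 1.17 CPM in High Ile, against 1.33, 13.6 and 32.3 CPM in Control. The groups did not overlap, but the Control libraries were split: 3N and 7N had 1.39 and 1.33 CPM, while 3R, 7R, 11N and 11R had 16.7, 14.4, 12.9 and 32.3 CPM. Its log2 fold change was -4.14 ± 0.81 (edgeR adjusted p = 0.0017, block 0.11, summed 0.041). For Sqle the edgeR adjusted p was 0.053 without High Ile number 8.

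Idi1, the isopentenyl diphosphate isomerase on chromosome 13 at 8885501 to 8892451, had 3.7, 5.29 and 9.47 CPM in High Ile, against 5.21, 52.4 and 120 CPM in Control. The Control libraries 3N and 7N, at 8.66 and 5.21 CPM, lay among the High Ile libraries, and the other 4 at 49 CPM or more. Idi1 fell by 3.07 ± 0.62 on the log2 scale (edgeR adjusted p = 0.0024, block 0.085, summed 0.044). The same Control libraries, 3N and 7N, were the lowest of their group for Fdps, Cyp51 and Lss, so the split lay within numbers 3 and 7. For Idi1 the edgeR adjusted p was 0.064 without High Ile number 8 and 0.064 without Control number 11.

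Lss, the lanosterol synthase, had 9.44, 11.7 and 14.7 CPM in High Ile, against 11.9, 25.9 and 42.3 CPM in Control, a log2 fold change of -1.06 ± 0.2 (edgeR adjusted p = 0.00092, block 0.022, summed 0.018). Cyp51, the lanosterol demethylase, had 8.12, 11.3 and 24 CPM in High Ile, against 16.5, 57.4 and 108 CPM in Control, a change of -1.95 ± 0.4 (edgeR adjusted p = 0.0031, block 0.031, summed 0.051). The groups overlapped for both through the Control libraries 3N and 7N. For Lss and Cyp51 the edgeR adjusted p was 0.053 and 0.085 without High Ile number 8 and 0.063 and 0.063 without Control number 11.

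Fdps, the farnesyl diphosphate synthase, had 9.12, 12.6 and 20.6 CPM in High Ile, against 11.2, 51.9 and 87.7 CPM in Control, a log2 fold change of -1.82 ± 0.39 (edgeR adjusted p = 0.0042, block 0.078). The groups overlapped at the low end of the Control range. Hmgcs1 and Mvd of the mevalonate branch had log2 fold changes of -0.99 (edgeR adjusted p = 0.023, block 0.16) and -1.69 (0.011, block 0.11). Of the later enzymes, Msmo1 and Nsdhl had -1.78 (edgeR adjusted p = 0.013, block 0.14) and -1.3 (0.012, block 0.099). For Fdps, Hmgcs1, Mvd, Msmo1 and Nsdhl the edgeR adjusted p was 0.076 to 0.1 without High Ile number 8 and 0.065 to 0.28 without Control number 11. For Hmgcs1 and Msmo1 the edgeR adjusted p was 0.06 and 0.059 without High Ile number 4. For Hmgcs1 the edgeR adjusted p was 0.055 without High Ile number 14.

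Regulators of the pathway fell as well. Srebf2, which encodes SREBP2, had 21.2, 23.6 and 27.1 CPM in High Ile, against 24.5, 35.7 and 46.8 CPM in Control, a log2 fold change of -0.59 ± 0.14 (edgeR adjusted p = 0.009, block 0.07). Insig1, which holds SREBPs in the endoplasmic reticulum, had a change of -1.16 ± 0.29 (edgeR adjusted p = 0.015, block 0.13). For Srebf2 and Insig1 the edgeR adjusted p was 0.095 and 0.16 without High Ile number 8 and 0.075 and 0.24 without Control number 11. For Insig1 the edgeR adjusted p was 0.078 without High Ile number 4. Hmgcs1, Mvd, Msmo1, Nsdhl, Insig1 and Srebf2 were named after their values were seen, as steps or regulators of the pathway.

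**Figure D2:**
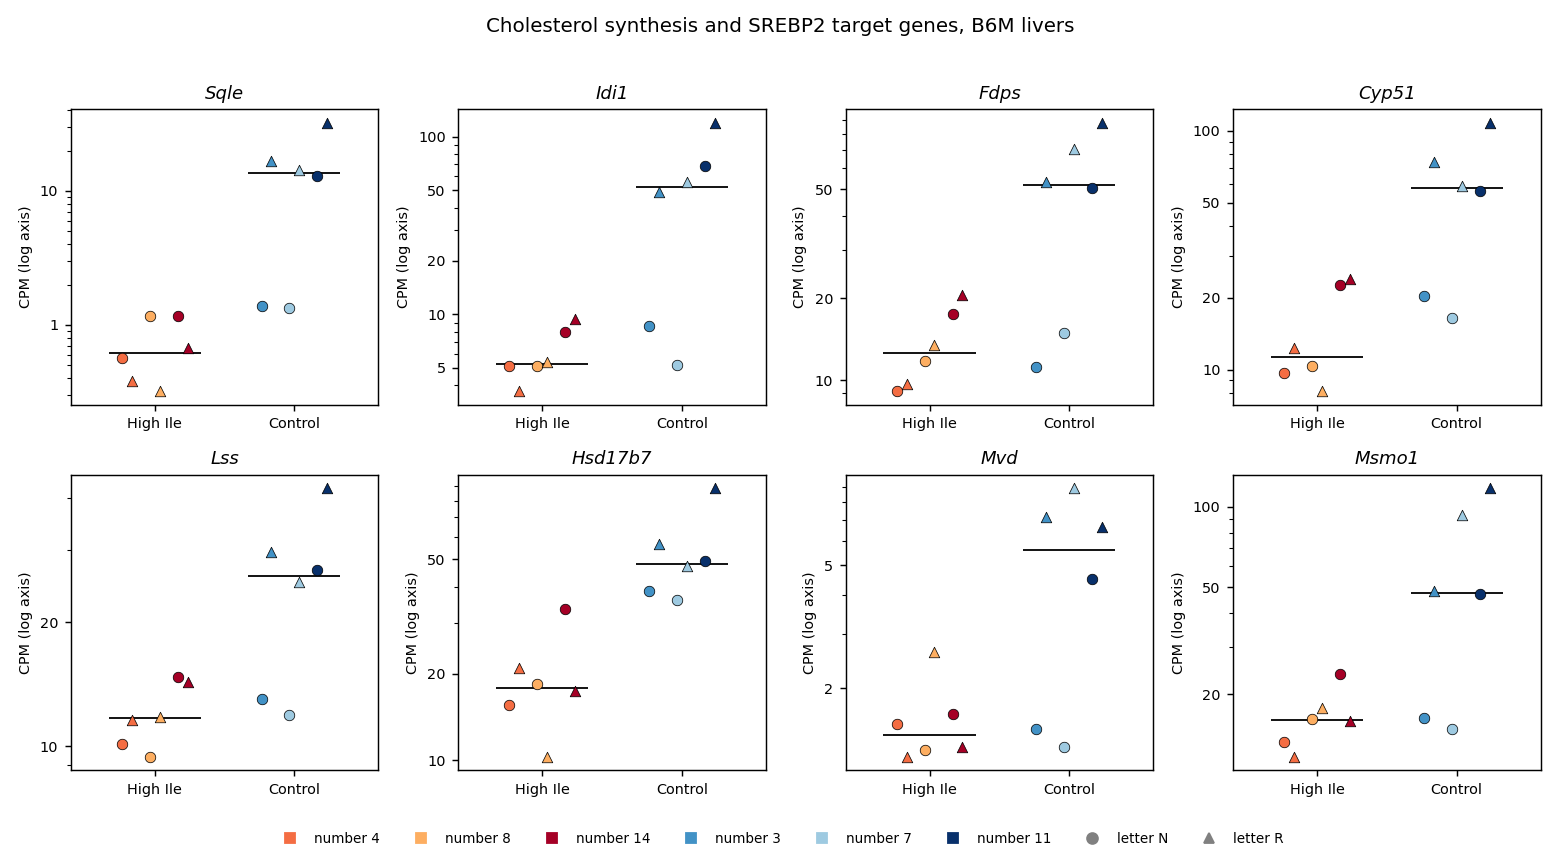
Level in CPM (log axis) of 8 genes of cholesterol synthesis and SREBP2 targets in each High Ile and Control library of B6M livers; colour is the title number, shape the letter, and the bar the median of 6 libraries. Hsd17b7 is lower in all 6 High Ile libraries than in any Control library, and for Idi1 the Control libraries 3N and 7N, at 8.66 and 5.21 CPM, lie among the High Ile libraries.

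Abcg5 and Abcg8 rose. They encode the partners of the transporter that secretes sterols into bile, and both are known LXR targets. Of 27 tested genes of bile acid and sterol handling, 3 were higher and 3 lower (median -0.02), and with the block Abcg5 and Abcg8 alone passed. Abca1 of this list, which exports cholesterol to apolipoproteins, did not pass the test (0.06 ± 0.14, edgeR adjusted p = 0.83, block 0.93). Abcg5 (chromosome 17 at 84658234 to 84683011, minus strand) had 114, 143 and 197 CPM in High Ile, against 52.8, 64.4 and 128 CPM in Control. Abcg8 (chromosome 17 at 84676302 to 84700333, plus strand) had 104, 164 and 182 CPM in High Ile, against 59.8, 75.8 and 125 CPM in Control. For both, Control library 7N, at 128 and 125 CPM, lay above High Ile 14N, and the other Control libraries lay below all of High Ile.

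Abcg5 rose by 1 ± 0.17 on the log2 scale (edgeR adjusted p = 0.00022, block 0.001, summed 0.032) and Abcg8 rose by 0.93 ± 0.16 (edgeR adjusted p = 0.00014, block 0.0018, summed 0.023). Their annotated spans overlap on opposite strands, and whether counting used the strand is not given in the sources used here, so some reads may have been counted for the other gene. Abcg1, a further sterol transporter and LXR target named after its values were seen, had 5.23, 7.89 and 13.5 CPM in High Ile, against 3.66, 4.95 and 6.21 CPM in Control. It rose by 0.88 ± 0.19 (edgeR adjusted p = 0.0033, block 0.04, summed 0.02), and its edgeR adjusted p was 0.064 without High Ile number 8.

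Cyp39a1, an oxysterol hydroxylase of bile acid synthesis, had 6.09, 12.7 and 14.2 CPM in High Ile, against 20.5, 27.3 and 57.5 CPM in Control, without overlap. Its log2 fold change was -1.42 ± 0.33 (edgeR adjusted p = 0.0088, block 0.07). For Cyp39a1 the edgeR adjusted p was 0.082 without High Ile number 8 and 0.16 without Control number 11. Cyp7a1, the rate-limiting enzyme of bile acid synthesis, had 101, 147 and 263 CPM in High Ile, against 148, 310 and 433 CPM in Control, and did not pass the test (-0.79 ± 0.41, edgeR adjusted p = 0.25, block 0.42).

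Among lipid droplet genes, 6 of 26 tested were higher and 0 lower (median 0.32). With the block 3 of them passed, and 1 was called without High Ile number 8, as without Control number 11 or 3; without library 8R there were 2. Cidea encodes a lipid droplet fusion protein that is known to rise in fatty liver. It had 70.2, 49.5, 55.3 and 70.2 CPM in libraries 4N, 4R, 8N and 8R and 0.757 and 7.8 CPM in 14N and 14R of High Ile, against 0.176 to 4.96 CPM in Control. Numbers 4 and 8 were thus far above Control, and 14N lay within its range. Cidea rose by 3.97 ± 0.57 on the log2 scale (edgeR adjusted p = 1.8e-05, block 0.005, summed 0.0029), and its edgeR adjusted p was 0.0024 without number 8.

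Cfd encodes adipsin, a complement factor best known as an adipocyte product, and lies on chromosome 10 at 79890853 to 79892655. It had 8.67, 90.5 and 193 CPM in High Ile, against 0, 1.49 and 9.71 CPM in Control. The overlap came from High Ile 14N, at 8.67 CPM, and Control 7N, at 9.71 CPM. The fitted log2 fold change was 5.2 ± 0.75 (edgeR adjusted p = 1.8e-05, block 6.2e-06, summed 0.032), the largest rise among the genes named by rule.

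Cfd is 1 of 7 adipose tissue markers, of which Cfd and Car3 had enough counts to be tested. Adipoq, Plin1 and Retn reached at most 0.148 CPM in any of the 12 libraries, and Lep and Ucp1 were at 0 in all of them. The summed level of the 2 tested markers was 1660 to 6690 CPM in High Ile and 229 to 3150 CPM in Control. Nearly all of it was Car3, a carbonic anhydrase that did not pass the test (1.23 ± 0.44, edgeR adjusted p = 0.09, block 0.18). Its part in the Cfd result was not tested.

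Other fat storage genes had smaller fold changes. Plin4, a lipid droplet coat protein, had 117, 205 and 270 CPM in High Ile, against 29.2, 58.5 and 156 CPM in Control, with Control 7N at 156 CPM above High Ile 14N; it rose by 1.44 ± 0.35 (edgeR adjusted p = 0.012, block 0.038). Mogat1, which makes diacylglycerol, had a log2 fold change of 1.98 ± 0.48 (edgeR adjusted p = 0.011, block 0.093), with High Ile 14N and 14R, at 0.964 and 0.876 CPM, inside the Control range of 0.848 to 2.57 CPM. Pparg, the nuclear receptor of fat cell formation, had a change of 0.76 ± 0.19 (edgeR adjusted p = 0.014, block 0.086). For Plin4, Mogat1 and Pparg the edgeR adjusted p was 0.096 to 0.33 without High Ile number 8, 0.053 to 0.14 without Control number 11 and 0.055 to 0.1 without Control number 3. Cidec, a relative of Cidea, had 19, 80.7 and 97.1 CPM in High Ile, against 17.6, 27.2 and 91.2 CPM in Control and did not pass (0.85 ± 0.42, edgeR adjusted p = 0.22, block 0.24).

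In the list of fatty acid synthesis and SREBP1c targets, 3 of 26 tested members were higher and 1 lower (median -0.13); with the block 2 of those higher passed, and 0 were called higher without High Ile number 8, Control number 11 or library 8R; without High Ile number 14 there were 6 higher. Srebf1, which encodes SREBP1, had 66.2, 99.4 and 174 CPM in High Ile, against 22.8, 32.2 and 88.6 CPM in Control, with Control 7N and 7R at 88.6 and 83 CPM inside the High Ile range. It rose by 1.17 ± 0.29 (edgeR adjusted p = 0.014, block 0.024, summed 0.22). Agpat2, which makes phosphatidic acid, had 224, 256 and 345 CPM in High Ile, against 145, 189 and 223 CPM in Control, without overlap, and rose by 0.5 ± 0.11 (edgeR adjusted p = 0.0058, block 0.037). For Srebf1 and Agpat2 the edgeR adjusted p was 0.18 and 0.074 without High Ile number 8 and 0.16 and 0.08 without Control number 11. For Srebf1 the edgeR adjusted p was 0.13 without Control number 3.

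Fasn, the fatty acid synthase, had 43.2, 72.1 and 117 CPM in High Ile, against 44.1, 71.1 and 101 CPM in Control, and did not pass the test (0.04 ± 0.24, edgeR adjusted p = 0.94, block 0.96). Scd1, the stearoyl-CoA desaturase, had 1510, 16800 and 21000 CPM in High Ile, against 2710, 6610 and 14600 CPM in Control (0.79 ± 0.49, edgeR adjusted p = 0.35, block 0.69), with High Ile 14N and 14R, at 1510 and 4350 CPM, below the other 4 High Ile libraries. Acacb, the mitochondrial acetyl-CoA carboxylase, had 21.1, 24.5 and 27.6 CPM in High Ile, against 32.1, 41.8 and 51.8 CPM in Control, without overlap. Acacb fell by 0.8 ± 0.2 (edgeR adjusted p = 0.013, block 0.074) and was also called in the fit of 12 libraries (0.03). For Acacb the edgeR adjusted p was 0.076 without High Ile number 8 and 0.072 without Control number 11.

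Of 40 tested PPARA targets of fatty acid oxidation, 0 were higher and 4 lower (median -0.07), and 3 of the 4 passed the block; without High Ile number 8 there was 1 called, without Control number 11 there were 2, and without Control number 7 there were 9. Cyp4a14, a microsomal fatty acid omega-hydroxylase on chromosome 4 at 115486200 to 115496142, had 2650, 2940 and 4080 CPM in High Ile, against 5870, 7300 and 9190 CPM in Control. All High Ile libraries lay below all Control libraries. Cyp4a14 fell by 1.22 ± 0.18 on the log2 scale (edgeR adjusted p = 1.8e-05, block 0.00051, summed 0.0014).

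Cyp4a31 and Cyp4a10, members of the same gene family, had log2 fold changes of -1.57 ± 0.27 (edgeR adjusted p = 0.00035, block 0.00026) and -0.48 ± 0.13 (edgeR adjusted p = 0.021, block 0.078). These genes resemble each other closely, so their counts are uncertain where reads could be split between them. Ehhadh, a peroxisomal oxidation enzyme, had 766, 829 and 1050 CPM in High Ile, against 883, 1490 and 2930 CPM in Control, with Control 11N and 11R the highest at 2930 and 2360 CPM, and a log2 fold change of -0.97 ± 0.22 (edgeR adjusted p = 0.0055, block 0.042). For Cyp4a31, Cyp4a10 and Ehhadh the edgeR adjusted p was 0.053 to 0.28 without High Ile number 8. For Cyp4a10 and Ehhadh the edgeR adjusted p was 0.096 and 0.25 without Control number 11. For Cyp4a10 the edgeR adjusted p was 0.078 without Control number 3. In the list of gluconeogenesis and fasting, 0 of 23 genes were called (median -0.26), but 7 were lower without High Ile number 14 and 4 without Control number 7. Pck1, a key enzyme of gluconeogenesis, had 1120, 2160 and 3030 CPM in High Ile, against 2380, 2990 and 3500 CPM in Control (-0.49 ± 0.19, edgeR adjusted p = 0.12, block 0.18), and its edgeR adjusted p was 0.0099 without High Ile number 14.

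Of 25 tested NRF2 and glutathione genes, 8 were higher and 0 lower (median 0.32), and Gstm3, Gstm1, Taldo1 and Gsta4 passed the block. Apart from Taldo1 and Nqo1, the 8 were Gstm and Gsta genes. Gclm, Srxn1, Txnrd1, Gsr and Hmox1 of the list were not called, and these and Nqo1 were named after their values were seen. Without High Ile number 8 there was 1 called, without library 8R there were 4, and without Control number 3 there were 5. Gstm1, a major hepatic glutathione transferase on chromosome 3 at 108012255 to 108017973, had 887, 1150 and 2400 CPM in High Ile, against 501, 577 and 895 CPM in Control. Control 7R, at 895 CPM, lay above High Ile 4R, at 887 CPM, the single overlap. Gstm1 rose by 1.1 ± 0.18 (edgeR adjusted p = 9.5e-05, block 0.003, summed 0.036), and its edgeR adjusted p was at most 0.029 without any number.

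Gstm3, on chromosome 3 at 107963696 to 107969283, had 29.7, 29.5 and 66 CPM in High Ile 4N, 8N and 8R and 6.9, 4.06 and 6.3 CPM in 4R, 14N and 14R, against 2.21, 3.21 and 6.11 CPM in Control. High Ile 14N lay within the Control range, and 4R and 14R just above it. Gstm3 rose by 2.65 ± 0.42 (edgeR adjusted p = 7.6e-05, block 0.022, summed 0.023). Gsta4, which conjugates products of lipid peroxidation, had 20, 25.7 and 44.8 CPM in High Ile, against 10.8, 15.1 and 18.7 CPM in Control, without overlap, and rose by 0.96 ± 0.19 (edgeR adjusted p = 0.0013, block 0.017). Taldo1, transaldolase of the pentose phosphate pathway, rose by 0.52 ± 0.1 (edgeR adjusted p = 0.0013, block 0.016), and Gsta1 had a log2 fold change of 3.25 ± 0.74 (edgeR adjusted p = 0.0069, block 0.091). For Gstm3, Gsta4, Taldo1 and Gsta1 the edgeR adjusted p was 0.057 to 0.25 without High Ile number 8. Members of the Gstm and Gsta families resemble each other closely, so their counts are uncertain in part.

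Of 23 CAR and PXR targets, 6 were higher and 0 lower (median 0.18), 0 of them passed the block, and 0 were called without High Ile number 8, library 8R, Control number 11 or Control number 3. Cyp2b9, on chromosome 7 at 26173411 to 26210661, had the largest change of them. It had 178 CPM in 8R, 18.1 in 4N, 9.1 in 8N, 0.544 in 4R, 0.125 in 14R and 0 in 14N of High Ile, against 0, 0.137 and 8.99 CPM in Control. A single High Ile library, 8R, thus stood far above the rest, and the fitted log2 fold change was 4.43 ± 0.95 (edgeR adjusted p = 0.0042, block 0.37, summed 0.2). For Cyp2b9 the edgeR adjusted p was 0.37 without High Ile number 8, 0.064 without Control number 11 and 0.053 without Control number 3.

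**Figure D3:**
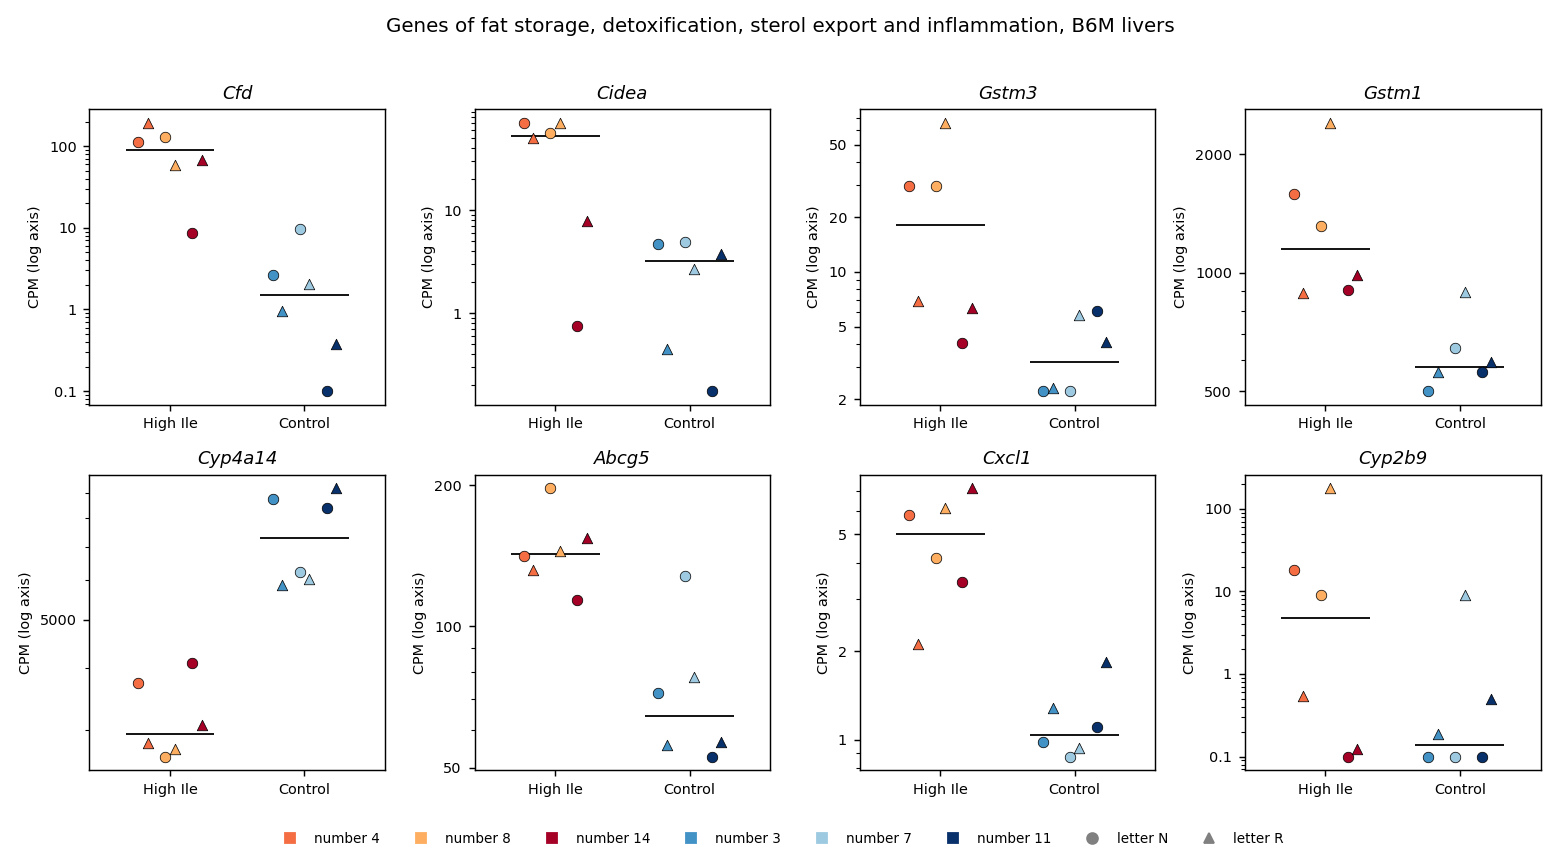
Level in CPM (log axis, values under 0.1 drawn at 0.1) of 8 genes in each High Ile and Control library of B6M livers; colour is the title number, shape the letter, and the bar the median of 6 libraries. Cyp4a14 and Cxcl1 separate all 6 High Ile libraries from all 6 Control libraries, while Cidea is at 0.757 and 7.8 CPM in High Ile 14N and 14R and at 49.5 CPM or more in the other 4.

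Genes known as female-biased in mouse liver moved in both directions. Of 36 tested, 5 were higher and 7 lower (median -0.24), of which 2 and 1 passed the block. Those were Gstm3 and Cyp2a22, which rose, and Cyp4a14, which fell. Gstm3, Cyp4a14, Cyp39a1 and Cyp2b9 are also counted in lists given above. Without High Ile number 8 there were 0 higher and 3 lower. Of 31 male-biased genes 0 were called (median -0.09), as without High Ile number 8 or Control number 11, but 8 were lower without High Ile number 14. Cyp2c40 had 0.793, 2.32 and 8.47 CPM in High Ile, against 0.747, 17.1 and 71.3 CPM in Control, where 11N was the lowest Control library, and its log2 fold change was -3.08 ± 0.52 (edgeR adjusted p = 0.00022, block 0.065, summed 0.0029). Cyp2c69 had 0.17, 0.576 and 2.68 CPM in High Ile, against 0.527, 7.25 and 34.7 CPM in Control, a change of -3.93 ± 0.67 (edgeR adjusted p = 0.00026, block 0.19, summed 0.0014). These cytochromes are near-identical, so their counts are uncertain; both were called without each number, and neither with the block.

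Cyp2a22, also of a family of close copies, had 70.2, 17.3, 74.7 and 172 CPM in 4N, 4R, 8N and 8R and 3.17 and 3.92 CPM in 14N and 14R of High Ile, against 2.6, 5.31 and 21.1 CPM in Control (2.93 ± 0.52, edgeR adjusted p = 0.00069, block 0.045, summed 0.072). Sult1e1, an estrogen sulfotransferase, had 0.381, 1.94 and 8.12 CPM in High Ile, against 0.0207, 0.191 and 0.654 CPM in Control (3.9 ± 0.9, edgeR adjusted p = 0.0074, block 0.29, summed 0.032). Cyp17a1 of steroid synthesis had a log2 fold change of -2.35 ± 0.58 (edgeR adjusted p = 0.014, block 0.095), with Control 11N at 345 CPM and the other Control libraries at 29 to 98 CPM. Lepr, the leptin receptor, had a change of -2.01 ± 0.5 (edgeR adjusted p = 0.013, block 0.076), with Control 11N at 103 CPM and the other Control libraries at 8.65 to 32.7 CPM. For Cyp2a22, Sult1e1, Cyp17a1 and Lepr the edgeR adjusted p was 0.086 to 0.16 without High Ile number 8. For Sult1e1, Cyp17a1 and Lepr the edgeR adjusted p was 0.075 to 0.22 without Control number 11. For Cyp17a1 and Lepr the edgeR adjusted p was 0.072 and 0.072 without High Ile number 4.

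Several inflammatory genes of low level were higher. Cxcl1, a chemokine that attracts neutrophils, lies on chromosome 5 at 90891241 to 90893115 and had 2.12, 4.99 and 7.17 CPM in High Ile, against 0.875, 1.04 and 1.84 CPM in Control. All High Ile libraries lay above all Control libraries, those of number 14 included. Cxcl1 rose by 2.02 ± 0.33 on the log2 scale (edgeR adjusted p = 9.4e-05, block 0.017, summed 0.0029). In the acute phase list 3 of 32 tested members were higher and 2 lower (median -0.03), and Cxcl1 alone passed the block. The 2 lower ones were C3 and, named after its values were seen, Itih3.

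Orm3 and Saa3, acute phase proteins, had log2 fold changes of 2.68 ± 0.49 (edgeR adjusted p = 7e-04, block 0.089) and 1.67 ± 0.45 (edgeR adjusted p = 0.021, block 0.2). Saa3 belongs to a family of close copies. Their relatives in the list, Orm1, Orm2, Saa1, Saa2 and Saa4, were not called. Ccl2, which attracts monocytes, had 0.163, 1.61 and 3.74 CPM in High Ile, against 0.0988, 0.434 and 0.966 CPM in Control, a change of 1.84 ± 0.46 (edgeR adjusted p = 0.014, block 0.19), and its receptor Ccr2 had 0.85 ± 0.26 (edgeR adjusted p = 0.048, block 0.041). The chemokine Cxcl10, with a change of 1.14 ± 0.32 (edgeR adjusted p = 0.026, block 0.14), was the 1 of 32 interferon response genes called (median 0.2). Ubd, an inducible ubiquitin-like protein, had a change of 2.54 ± 0.63 (edgeR adjusted p = 0.014, block 0.047). For Orm3, Saa3, Ccl2, Ccr2, Cxcl10 and Ubd the edgeR adjusted p was 0.053 to 0.27 without High Ile number 8. For Saa3, Ccl2, Cxcl10 and Ubd the edgeR adjusted p was 0.051 to 0.11 without Control number 11. For Saa3, Ccl2, Ccr2, Cxcl10 and Ubd the edgeR adjusted p was 0.059 to 0.18 without Control number 3. For Cxcl10 the edgeR adjusted p was 0.054 without High Ile number 4. For Saa3 and Ccr2 the edgeR adjusted p was 0.054 and 0.16 without Control number 7. For Saa3 the edgeR adjusted p was 0.18 without High Ile number 14.

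Themis, best known from T cells, had 11.2, 11.9, 13.8 and 15.1 CPM in 4N, 4R, 8N and 8R and 1.45 and 1.42 CPM in 14N and 14R of High Ile, against 0.395, 1.37 and 3.1 CPM in Control. Number 14 lay within the Control range and numbers 4 and 8 far above it. Themis rose by 2.73 ± 0.56 (edgeR adjusted p = 0.0026, block 0.015, summed 0.036). For Themis the edgeR adjusted p was 0.079 without High Ile number 8. Of 19 tested lymphocyte markers 0 were called (median 0.63), with sums of 22.1 to 95.3 CPM in High Ile and 22.3 to 37.1 CPM in Control.

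Markers of the other immune cells were set beside these results. Of 14 Kupffer cell markers 0 were called (median 0.35), with sums of 218 to 958 CPM in High Ile and 300 to 535 CPM in Control. Of 16 markers of lipid-associated and infiltrating macrophages 3 were higher and 0 lower (median 0.68, 1 with the block, 0 without High Ile number 8, Control number 3 or library 8R or 11R, and 6 without High Ile number 14), with sums of 96.3 to 223 CPM in High Ile and 96.6 to 165 CPM in Control. Of 7 MHC class II genes 0 were called (median 0.69), with sums of 226 to 616 CPM in High Ile and 117 to 304 CPM in Control. For neutrophils 4 of 9 markers could be tested and 0 were called (median 0.87, sums of 3.17 to 7.87 CPM in High Ile and 2.77 to 4.5 CPM in Control), with Ly6g at or near 0, at most 0.0639 CPM. The sums overlapped between the groups in each of these lists, and their part in the inflammatory genes was not tested.

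In the lists of stellate cells and collagen (22 tested), sinusoidal endothelium (16), cholangiocytes (8), erythroid cells (6), pancreas (1), periportal hepatocytes (12) and mitochondrially encoded genes (13), 0 genes were called, with medians from -0.22 to 0.35; without High Ile number 14 there were 3 stellate and collagen and 2 sinusoidal genes higher and 2 periportal genes lower. Of 12 pericentral markers Lect2 alone was higher (median 0.15), and it did not pass the block. Of 11 hepatocyte markers 0 were higher and 3 lower (median -0.24, 1 with the block). Their sums were 72000 to 110000 CPM in High Ile and 99700 to 134000 CPM in Control. Without High Ile number 14 there were 6 lower, and without High Ile number 8 or Control number 11 there were 0. The 3 were Apob, Alb (-0.44 ± 0.11, edgeR adjusted p = 0.018, block 0.076) and Cps1, the first enzyme of the urea cycle (-0.88 ± 0.23, edgeR adjusted p = 0.019, block 0.07). For Alb and Cps1 the edgeR adjusted p was 0.13 and 0.2 without High Ile number 8, 0.24 and 0.19 without Control number 11 and 0.096 and 0.059 without High Ile number 4.

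Of 24 lipoprotein genes 1 was higher and 4 lower (median -0.03), and Apom and Apob passed the block. Without Control number 7 there were 4 higher and 4 lower, and without High Ile number 8 or Control number 11 there were 0. Apob encodes the scaffold of very low density lipoproteins and had 2880, 3580 and 3830 CPM in High Ile, against 4220, 4760 and 6120 CPM in Control, without overlap; it fell by 0.52 ± 0.12 (edgeR adjusted p = 0.0065, block 0.036). Mttp, which loads lipid onto it, had 222, 249 and 290 CPM in High Ile, against 310, 340 and 433 CPM in Control, also without overlap; it fell by 0.49 ± 0.12 (edgeR adjusted p = 0.011), and its block value, 0.05 after rounding, did not pass. Apom, an apolipoprotein of HDL, fell by 0.89 ± 0.19 (edgeR adjusted p = 0.0042, block 0.02). Pon3, an HDL-associated lactonase, had 33.9, 36.8 and 38.5 CPM in High Ile, against 39.3, 47.9 and 62.4 CPM in Control, without overlap, and fell by 0.43 ± 0.08 (edgeR adjusted p = 0.00096, block 0.017, summed 0.043). For Apob, Mttp and Apom the edgeR adjusted p was 0.077 to 0.11 without High Ile number 8 and 0.063 to 0.12 without Control number 11. For Apob the edgeR adjusted p was 0.063 without Control number 3.

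Of 25 tested genes of branched-chain amino acid breakdown 1 was higher and 0 lower (median 0.13). That gene was Hibadh, an enzyme of the valine branch, with 264, 313 and 331 CPM in High Ile, against 186, 220 and 267 CPM in Control and a log2 fold change of 0.45 ± 0.12 (edgeR adjusted p = 0.021, block 0.074). For Hibadh the edgeR adjusted p was 0.16 without High Ile number 8, 0.088 without Control number 11 and 0.17 without Control number 3. Bckdhb, a subunit of the branched-chain keto acid dehydrogenase, did not pass (0.27 ± 0.11, edgeR adjusted p = 0.13, block 0.32), with an edgeR adjusted p of 0.048 without High Ile number 4. In the list for breakdown of other amino acids and for urea production, 1 of 39 tested genes was higher and 3 were lower (median -0.1), 0 of them with the block. Without High Ile number 14 there were 1 higher and 10 lower, without Control number 7 there were 4 and 5, and without High Ile number 8 or Control number 11 there were 0.

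Among 28 tested targets of ATF4, the factor of the amino acid deprivation response, 1 was higher and 1 lower (median 0.04), neither with the block. Without High Ile number 14 there were 3 higher and 5 lower, and without High Ile number 8 or Control number 11 there were 0. Gdf15, a stress hormone, had 0.979, 2.18 and 5.38 CPM in High Ile, against 0.125, 0.708 and 1.58 CPM in Control, a log2 fold change of 1.97 ± 0.55 (edgeR adjusted p = 0.026, block 0.11). Slc38a2, an amino acid transporter, had a change of -0.49 ± 0.15 (edgeR adjusted p = 0.041, block 0.12). Eprs, with -0.3 ± 0.09 (edgeR adjusted p = 0.041, block 0.1), was the 1 of 20 aminoacyl-tRNA synthetases called (median -0.11), and 3 were lower without High Ile number 14 or Control number 7. For Gdf15, Slc38a2 and Eprs the edgeR adjusted p was 0.15 to 0.38 without High Ile number 8, 0.087 to 0.22 without Control number 11, 0.08 to 0.14 without Control number 3 and 0.056 to 0.14 without High Ile number 4. For Gdf15 the edgeR adjusted p was 0.058 without Control number 7.

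Fgf21, a hormone of fasting and amino acid stress, had 7.35, 10.6 and 29.4 CPM in High Ile, against 7.66, 15.9 and 41.4 CPM in Control, and did not pass the test (-0.39 ± 0.41, edgeR adjusted p = 0.61, block 0.68). Trib3, an inhibitor within the ATF4 response, did not pass either (0.58 ± 0.25, edgeR adjusted p = 0.17, block 0.26), with an edgeR adjusted p of 0.025 without Control number 7. Asns, asparagine synthetase, had 0.32, 1.93 and 15.6 CPM in High Ile, against 0.445, 4.1 and 18.6 CPM in Control (-0.14 ± 0.59, edgeR adjusted p = 0.92, block 0.56), and its libraries spread widely within both groups. Its edgeR adjusted p was 0.014 without High Ile number 14, whose libraries had 15.6 and 14.2 CPM.

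In the lists of mTORC1 amino acid sensing (31 tested), cytosolic ribosomal proteins (41), oxidative phosphorylation (32) and the cell cycle (26), 0 genes were called, with medians of -0.04, 0.02, 0.1 and 0.1. Without High Ile number 14, however, 11 of the ribosomal protein genes were lower, and without Control number 7 there were 3 mTORC1 sensing genes higher. Of 21 genes of the growth hormone axis Stat5a alone was higher (median -0.1), not with the block, and Igf1 did not pass (-0.04 ± 0.16, edgeR adjusted p = 0.92, block 0.83). Of 25 genes of glucose uptake and glycolysis 2 were higher, Pkm among them (median 0.15), and of 24 unfolded protein response genes Dnajc3 was lower (median -0.32), 0 of them with the block. Without High Ile number 14 there were 4 growth hormone axis genes lower, 5 glucose genes higher and 5 unfolded protein response genes lower. In these lists 0 genes were called without High Ile number 8 or Control number 11. Of 30 immediate early and stress genes 1 was higher and 4 lower (median 0.16); with the block the higher one passed and 0 of the 4, and 0 were lower when summed and without High Ile number 8 or Control number 3. Gadd45a, a growth arrest gene, had 1.71, 2.78 and 5.75 CPM in High Ile, against 0.585, 0.954 and 1.75 CPM in Control and rose by 1.66 ± 0.36 (edgeR adjusted p = 0.0039, block 0.038). For Gadd45a the edgeR adjusted p was 0.14 without High Ile number 8 and 0.056 without Control number 11.

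The heat shock genes Hspa1b and Hspa1a, near-identical copies whose counts are uncertain, had log2 fold changes of -2.87 ± 0.65 (edgeR adjusted p = 0.0065, block 0.25) and -2.53 ± 0.67 (edgeR adjusted p = 0.021, block 0.22). Hspa1b was high in Control 3R and 11N, at 122 and 100 CPM, and stood at 3.42 to 20.8 CPM in the other 4, beside 3.42 to 8.86 CPM in High Ile. Of 21 circadian clock genes Rora, Clock and Arntl were lower (median 0.08), with log2 fold changes of -0.44, -0.53 and -1.2 and 0 of them with the block; without Control number 7 there were 3 clock genes higher and 4 lower, and the labels give no time of day. Xlr4a had the largest fall of all genes named, -4.21 ± 1.03 (edgeR adjusted p = 0.012, block 0.96), but stood at 9.4 and 4.88 CPM in Control 11N and 7N and at most 0.283 CPM in the other 10 libraries. For Hspa1b, Hspa1a, Rora, Clock, Arntl and Xlr4a the edgeR adjusted p was 0.092 to 0.25 without High Ile number 8. For Hspa1a, Rora, Clock, Arntl and Xlr4a the edgeR adjusted p was 0.079 to 0.54 without Control number 11. For Hspa1b, Hspa1a, Rora, Clock and Arntl the edgeR adjusted p was 0.069 to 0.19 without Control number 3. For Rora, Clock and Arntl the edgeR adjusted p was 0.066 to 0.13 without High Ile number 4.

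**Figure D4:**
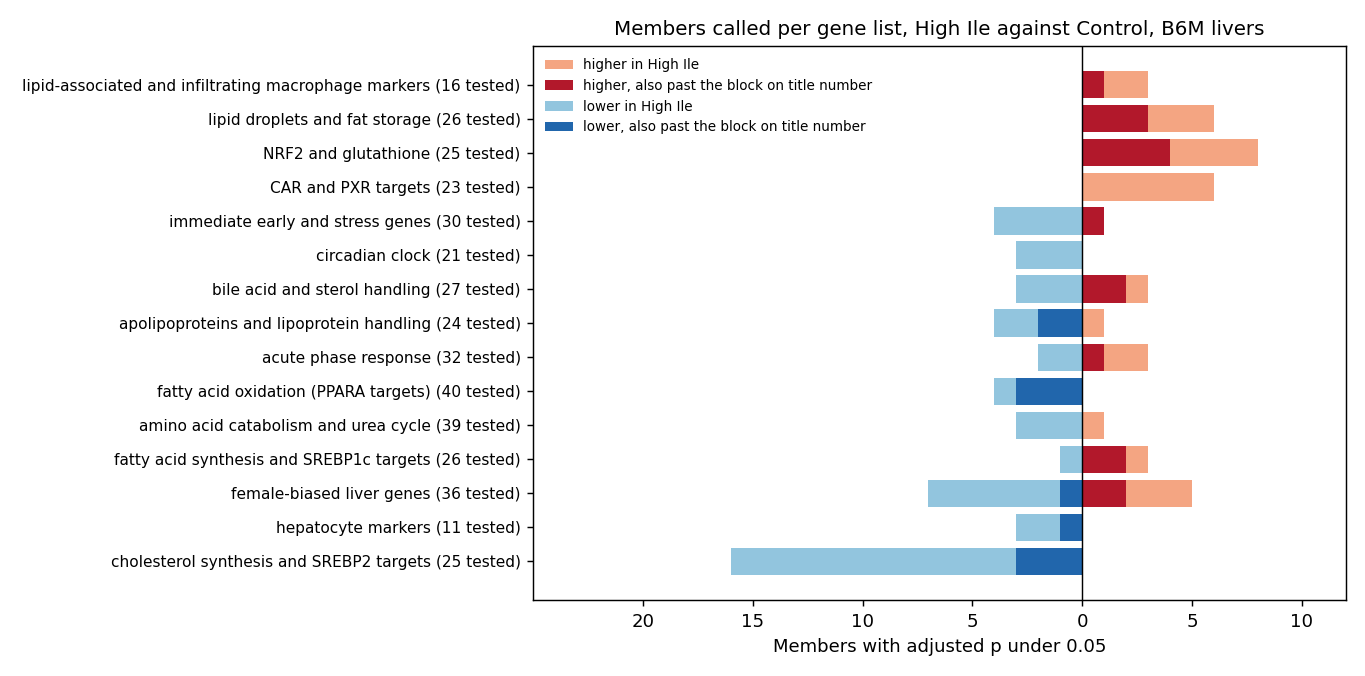
Members of each gene list with 3 or more genes called, higher (right) or lower (left) in High Ile than in Control livers of B6M mice; dark bars are those also past the block on title number. The cholesterol synthesis list has 16 lower, 3 of them with the block, and the NRF2 and glutathione list 8 higher, 4 of them with the block.

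The same comparison was made in B6F, DBAF and DBAM, each with 6 libraries of High Ile and 6 of Control. Over the mean of these 3 classes edgeR called 0 genes, with 423 higher and 507 lower at an unadjusted p under 0.05, while DESeq2 called 0 higher and 3 lower, and the block 0. By class edgeR called 0 genes in B6F (404 higher and 442 lower at an unadjusted p under 0.05), 1 higher in DBAF and 2 higher in DBAM. The effect in B6M minus the mean effect of the other classes was then tested as an interaction: by edgeR it was positive for 379 genes (2.53%) and negative for 615 (4.11%). With the block 46 and 51 passed, with numbers summed 4 and 9, without High Ile number 8 there were 28 and 38, and without Control number 11 there were 108 and 137. Of the 674 genes called in B6M, 551 also passed in this difference, which contains the B6M effect, so the 2 counts are not independent.

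The cholesterol synthesis list had a median log2 fold change of -1.06 in B6M and 0.24 in the mean of the other classes, and 16 of its 25 genes were lower in the difference. Hsd17b7 had -1.45 in B6M, against -0.03 in B6F, 0.2 in DBAF and 0.62 in DBAM, a difference of -1.72 ± 0.26 (edgeR adjusted p = 9.3e-05, block 0.0012). Sqle had -4.14 in B6M, against -1.77 in B6F, 2.07 in DBAF and 1.32 in DBAM, a difference of -4.68 ± 0.93 (edgeR adjusted p = 0.0023, block 0.11). The sign for Sqle was negative in both C57BL/6J classes and positive in both DBA/2J classes. However, edgeR called 0 genes in B6F, 1 in DBAF and 2 in DBAM, and a difference between the strains was not tested. Lss differed by -1.21 ± 0.23 (edgeR adjusted p = 0.0016, block 0.03) and Cyp51 by -2.44 ± 0.47 (edgeR adjusted p = 0.0018, block 0.033).

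Cidea had a log2 fold change of 3.97 in B6M, against -1.84 in B6F, -2.06 in DBAF and -2.54 in DBAM, a difference of 6.12 ± 0.97 (edgeR adjusted p = 9.3e-05, block 0.098). Cfd had 5.2 in B6M, against 0.96 in B6F, -4.24 in DBAF and -1.51 in DBAM, a difference of 6.8 ± 1.05 (edgeR adjusted p = 9.3e-05, block 0.012). Cyp4a14 had -1.22 in B6M, against -0.03 in B6F, -0.18 in DBAF and 0.36 in DBAM, a difference of -1.27 ± 0.2 (edgeR adjusted p = 9.3e-05, block 0.008). Of these 3 differences, that of Cidea did not pass the block.

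Gstm1 differed by 1.24 ± 0.21 (edgeR adjusted p = 2e-04, block 0.0082) and Gstm3 by 2.91 ± 0.47 (edgeR adjusted p = 0.00013, block 0.03). Cxcl1 differed by 2.26 ± 0.37 (edgeR adjusted p = 0.00013, block 0.023) and Pon3 by -0.59 ± 0.09 (edgeR adjusted p = 9.3e-05, block 0.008). Among the sterol transporters, Abcg5 differed by 0.97 ± 0.2 (edgeR adjusted p = 0.0026, block 0.014) and Abcg8 by 0.91 ± 0.18 (edgeR adjusted p = 0.0022, block 0.023). All 6 differences passed the block.

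**Figure D5:**
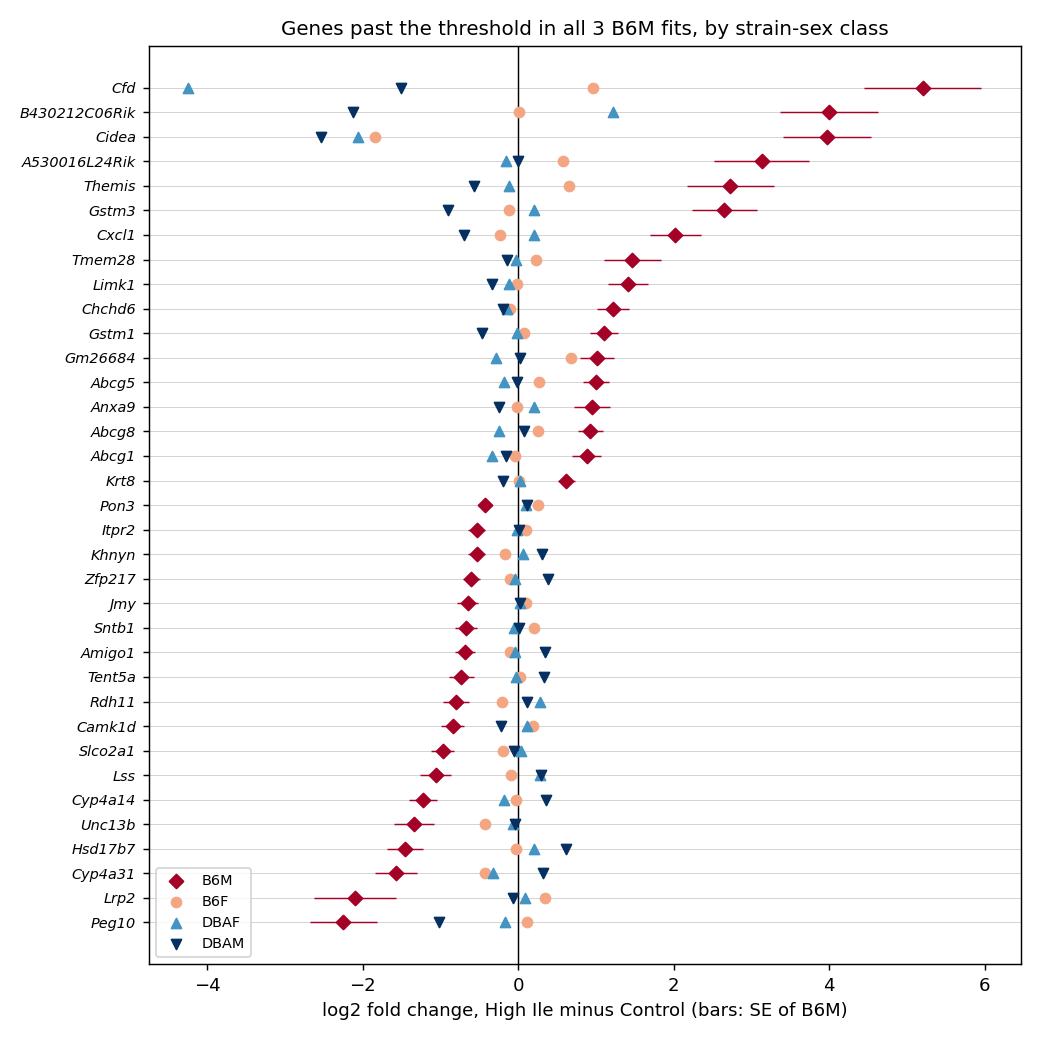
Log2 fold change, High Ile minus Control, of the 35 genes that passed the fit of 72 libraries, the block and the summed fit in B6M, shown for B6M (diamonds, with SE) and for B6F, DBAF and DBAM. The genes were selected on the B6M effect, so the distance between B6M and the rest is a description; Cidea, at 3.97 in B6M, is negative in the other 3 classes.

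Low isoleucine in B6M was compared with the same 6 Control libraries, so the values are only given side by side. Relative to Control, Cidea had a log2 fold change of 3.97 in High Ile and -4.37 in Low Ile, and Cfd had 5.2 in High Ile and -5.27 in Low Ile. Cyp4a14 had -1.22 in High Ile and 0.54 in Low Ile, and Ehhadh -0.97 in High Ile and 0.73 in Low Ile. Sqle had -4.14 in High Ile and -1.5 in Low Ile, and the cholesterol synthesis list had medians of -1.06 in High Ile and -0.62 in Low Ile. Cyp2b9 had 4.43 in High Ile and 4.69 in Low Ile, and Sult1e1 3.9 in High Ile and 4.42 in Low Ile. The Low Ile changes of Cidea, Cfd, Ehhadh, Cyp2b9 and Sult1e1 passed the test (edgeR adjusted p = 0.00026, 0.0043, 0.031, 0.0014 and 0.00077). Those of Cyp4a14 and Sqle did not (edgeR adjusted p = 0.053 and 0.21). In the cholesterol synthesis list 0 of 25 tested members were higher and 8 lower in Low Ile. Over all 14954 tested genes edgeR called 260 higher and 488 lower in Low Ile. With the block there were 96 and 142, and with numbers summed 51 and 162. The Low Ile changes of single genes above were not set beside these checks.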

How the data were processed

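The authors deposited a table of expected counts per gene for the whole series, from stranded RNA-seq libraries that 1 label calls polyA-enriched and another total RNA; its genome build is GRCm38.p5 per the labels' protocols, and R 3.4.3, edgeR and limma are named per the submitters' processing notes. For aligner, counter and strand setting: not given in the sources used here. Of nonzero deposited values, 9.56% were not whole; all were rounded. The 12 libraries were grouped by their diet labels. Genes kept by filterByExpr (14954 of 50307) entered 1 edgeR 4.0.16 quasi-likelihood fit (R 4.3.3) over the 12 groups of 72 libraries, with TMM factors of 0.84 to 1.08 in the 12, and Benjamini-Hochberg adjustment. CPM are TMM-scaled, gene positions are from GENCODE on GRCm38, and totals per library set the precision; prior counts affect the fitted changes of genes near 0.

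Alternatives were a random block on title number (limma 3.58.1 voom), numbers summed, the letter as covariate, RLE factors, other filters, quality weights, fewer libraries, each library or number left out, and DESeq2 1.42.0. The difference between classes could not be fitted to convergence for 29 genes, for which no p is given. The authors' own comparison tables were not used here.

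Genes named were the 12 largest rises and 12 largest falls among those called with a mean of at least 1 CPM, up to 4 members of lowest p per list, a panel of 12, and the 8 of lowest p in the difference; others are marked. Some that met the rule are not reported here. The members and lists were chosen with earlier results of these data known. The code was tested on simulated data.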

Additional observations from a re-analysis of the deposited data

Results flagged for a closer look

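Among the named genes, 1 library stood apart from its group of 6 by Dixon's test at its 95% level in 2 of the 158 combinations of gene and group examined; chance gives such a flag in about 5% of groups. These were Cyp39a1 in High Ile 4R, at 6.09 CPM, and Mttp in Control 11R, at 433 CPM.

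For 61 named genes the log2 fold change between High Ile and Control in B6M differed from the mean of the other 3 classes (interaction, edgeR adjusted p under 0.05). Each value is B6M minus that mean. The genes were named mainly for a large change or a low p in B6M, which is part of this difference. Some were named for a low p in the difference itself. That they passed was therefore partly set by how they were chosen, and the values are a description. Over all tested genes 379 differences were positive and 615 negative by edgeR, against 46 and 51 with the block and 4 and 9 summed. The values below were not filtered by the block, which the differences of Cidea and Sqle did not pass. In B6M, Cyp2b9 stood far above the rest in High Ile 8R, and Xlr4a in Control 11N and 7N. The difference was positive, in log2 units, for Cfd 6.8, Cidea 6.12, Cyp2b9 5.12, Sult1e1 4.05, Gsta1 3.47, Gstm3 2.91, Themis 2.74, Ubd 2.56 and Gdf15 2.53. Smaller positive log2 differences were found for Orm3 2.47, Ccl2 2.32, Cxcl1 2.26, Mogat1 2.11, Saa3 1.63, Gadd45a 1.56, Chchd6 1.37, Plin4 1.36 and Cxcl10 1.28. Positive log2 differences below these were those of Srebf1 1.26, Gstm1 1.24, Ccr2 1.11, Gsta4 1.08, Abcg1 1.07, Abcg5 0.97, Abcg8 0.91, Pparg 0.82 and Agpat2 0.58. The smallest positive log2 differences were Taldo1 0.56 and Hibadh 0.43.

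The difference was negative, in log2 units, for Sqle -4.68, Xlr4a -4.56, Cyp2c69 -4.15, Idi1 -3.53, Cyp2c40 -3.24, Hspa1b -2.63, Cyp51 -2.44, Cyp17a1 -2.34 and Msmo1 -2.22. Smaller negative log2 differences were found for Fdps -2.18, Mvd -1.99, Lepr -1.82, Hsd17b7 -1.72, Nsdhl -1.6, Cyp4a31 -1.42, Cyp39a1 -1.42, Insig1 -1.4 and Hmgcs1 -1.39. Negative log2 differences below these were those of Cyp4a14 -1.27, Lss -1.21, Ehhadh -1.05, Acacb -1.02, Apom -0.98, Slco2a1 -0.9, Clock -0.69, Srebf2 -0.69 and Mttp -0.68. The smallest negative log2 differences were Zfp217 -0.68, Apob -0.65, Pon3 -0.59, Rora -0.58 and Cyp4a10 -0.52.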

How the results depend on the processing

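Residuals were taken about the group mean, which tends to push correlations within a group below 0. For libraries sharing a number they correlated at -0.14 to 0.23, over 0.1 for 2 of 6 pairs. Between numbers of a group they correlated at -0.57 to 0.24, over 0.1 for 1 pair. Libraries of a number may thus not be independent. The number served as a block and not as a pairing, because each number lies in 1 diet. The called genes named here kept their sign under every alternative run, but many lost the call. With the replicate block on title number, 71 genes were higher and 65 lower (difference between classes: 46 and 51), and 38 of the 69 named calls were lost. The other counts that moved by over 1.5 times are given as higher and lower in High Ile. With numbers summed there were 26 and 33 (difference 4 and 9), without a filter 153 and 158 (difference 168 and 259), with quality weights 187 lower, with the 12 libraries 5 and 2, and with 18 B6M libraries 87 and 108. Without number 11 there were 44 and 49 (difference 108 and 137), without 14 there were 625 and 728 (difference 675 and 805), without 3 there were 79 and 105 (difference 132 and 191), without 7 there were 656 and 857 (difference 662 and 1042), and without 8 there were 9 and 7 (difference 28 and 38). Leaving out 1 library gave 64 to 450 higher and 77 to 562 lower (difference 72 to 532 and 115 to 758). The title letter, RLE factors, a mean of at least 1 CPM and DESeq2 moved no count of calls in B6M by over 1.5 times. Among uncalled genes, the log2 fold change of Asns (-0.14) turned to 0.55, 0.28 and 0.42 without numbers 11, 4 and 8. That of Igf1 (-0.04) turned to 0.04 and 0.16 without 4 and 8, and that of Fasn (0.04) to -0.1 summed and -0.25 without 8. Leaving out 1 library gave -0.71 to 0.6 for Asns, -0.22 to 0.05 for Igf1 and -0.14 to 0.16 for Fasn. The cause was not tested. Genes under about 1 CPM rest on few reads.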
